A study of Mus musculus with 4 samples.

Results

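Neuropeptide precursor genes, together with a pair of neurexophilin genes, were followed in the cerebral cortex of mouse embryos, sampled at day 15 of gestation (E15) and measured by RNA-seq. The genes listed were Grp, Npy, Cck, Nts, Penk, Tac1, Adcyap1, Crh, Nxph1 and Nxph3, and rows were matched by symbol. Of these 10 genes, 7 had a row among the 13289 genes of the deposited count table. Nts, Tac1 and Crh were not analysed here. The list was chosen by name, selected on the measured difference of Grp between the groups and the values of other peptide genes in the same comparison. The difference of each of the 7 genes between groups is therefore given as a description, without a p-value of the fit made here. For Nxph1 the authors' adjusted p is quoted. Counts of calls in a gene list are given with the share over all genes, except in fits under other settings.

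The samples were 2 control cortices, titled WT, and 2 Lhx2 cKO cortices. Here cKO is read as conditional knockout of Lhx2, which encodes a LIM-homeodomain transcription factor of cortical progenitors. The tissue of all libraries was labelled cerebral cortex, and polyadenylated RNA was sequenced. The promoter that drives recombination, the allele, the strain, the sex, the number of embryos behind a library and any pooling are not given in the sources used here, so p-values measure only the spread between these libraries. Total counts ranged from 22294237 to 24609627 per library. A count of 3, taken as the floor of detection, corresponded to 0.122 to 0.135 CPM, the read count scaled to a common library total. Lhx2 itself was at 311 and 293 CPM in control and at 244 and 241 CPM in Lhx2 cKO, a difference of -0.31 in log2 (SE 0.098, adjusted p 0.0191 in edgeR's quasi-likelihood test), lower in both Lhx2 cKO libraries; which part of the gene was deleted is not given in the sources used here. Without control 1 the value was -0.25 with an adjusted p of 0.176, leaving out Lhx2 cKO 1 gave -0.28 with 0.102, and leaving out Lhx2 cKO 2 gave -0.34 with 0.0538. Markers of cortical projection neurons were present in all libraries, with a sum over 7 genes of 2620 and 2526 CPM in control and of 2391 and 2268 CPM in Lhx2 cKO. Of the 7, Emx1 (-1.54) and Neurod6 (-0.32) were called lower (adjusted p 2.00e-15 and 0.0212 in edgeR) and 0 higher. Over all genes tested 9.17% were called lower and 11.6% higher. Bcl11b (-0.25), Fezf2 (-0.19) and Slc17a7 (-0.12) were lower in both Lhx2 cKO libraries but were not called. The values of Neurod2 and Tbr1, also not called, were 0.01 and 0.08. The median log2 fold change of the 7 was -0.19.

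Neuropeptides are made as larger precursors, cut in the secretory pathway by prohormone convertases and stored in dense-core vesicles, from which they are released to act on G-protein-coupled receptors. In the cortex Npy is best known as a product of GABAergic interneurons, whereas Cck is made by both interneurons and projection neurons. Neurexophilins are secreted glycoproteins with a precursor-like structure that bind alpha-neurexins, adhesion proteins of the presynaptic membrane.

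Of the 7 genes, 3 that code for peptides and were higher in Lhx2 cKO had an entry in the RefSeq promoter table, which holds 250 bases before and 50 after a start site in build GRCm38.p6. Their promoters are shown because these genes were higher together. Capitals mark TGACG, the half-site of the cyclic AMP response element, or its reverse complement CGTCA, and TATAAA or its reverse complement TTTATA. Both motifs were added after the promoters had been seen.
Npy, chr6:49822460-49822759, plus strand: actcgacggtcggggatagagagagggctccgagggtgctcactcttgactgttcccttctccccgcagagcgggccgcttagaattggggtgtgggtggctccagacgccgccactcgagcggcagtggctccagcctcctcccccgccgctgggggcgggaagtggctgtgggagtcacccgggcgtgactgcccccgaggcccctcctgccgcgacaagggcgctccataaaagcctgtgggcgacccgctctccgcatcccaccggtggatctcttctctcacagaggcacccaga
Cck, chr9:121495645-121495944, minus strand: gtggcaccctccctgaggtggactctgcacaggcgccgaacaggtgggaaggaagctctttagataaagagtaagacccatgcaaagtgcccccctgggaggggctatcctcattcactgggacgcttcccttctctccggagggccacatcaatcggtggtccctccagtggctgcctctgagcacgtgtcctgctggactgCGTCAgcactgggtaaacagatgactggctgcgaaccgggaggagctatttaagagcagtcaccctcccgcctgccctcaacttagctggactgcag
Adcyap1, the downstream of 2 start sites, chr17:93198918-93199217, plus strand: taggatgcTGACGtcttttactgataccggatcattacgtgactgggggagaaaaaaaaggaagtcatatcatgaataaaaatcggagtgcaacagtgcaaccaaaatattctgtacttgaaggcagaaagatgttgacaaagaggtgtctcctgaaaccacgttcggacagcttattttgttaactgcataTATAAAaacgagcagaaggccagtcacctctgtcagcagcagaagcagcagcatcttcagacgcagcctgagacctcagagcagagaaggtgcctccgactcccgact
The half-site TGACG began 242 bases before the start in the Adcyap1 window and its reverse complement 47 bases before the start in the Cck window. No match was found in the Npy window. On either strand TGACG occurred in 20.8% of all 32851 promoters of the table. The letters TATAAA were present 58 bases before the start in the Adcyap1 window, and in 13.6% of all promoters. The full element TGACGTCA, which contains the half-site, was found in 1.79% of all promoters, and the homeodomain core TAATTA in 5.29%; neither occurred in the 3 windows shown. A match of this kind is a description of the letters and not a binding site.

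Grp (ENSMUSG00000024517.18) encodes gastrin-releasing peptide, a bombesin-like peptide. The control libraries held 22 and 7 reads of this gene, and the Lhx2 cKO libraries held 152 and 179. These correspond to 0.894 and 0.286 CPM in control and to 6.82 and 7.58 CPM in Lhx2 cKO, so both Lhx2 cKO libraries lay above both control libraries by a wide gap. Control had a mean of 0.59 ± 0.43 CPM (SD, n = 2). The Lhx2 cKO mean was 7.20 ± 0.54 CPM (SD, n = 2). The log2 fold change of Lhx2 cKO over control from the fit across all genes was 3.60 (SE 0.357). By size this was the difference ranked 4 among the rises of the 13288 genes tested.

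The size of the Grp difference depended on which control library was used. The exact 95% Poisson intervals, which cover counting error only, ran from 0.56 to 1.35 CPM in control 1 and from 0.115 to 0.59 CPM in control 2. Those intervals just overlapped. On log2(CPM + 0.5) the control libraries differed by -0.83, control 2 over control 1, whereas the median absolute difference was 0.25 over the 2743 genes with a mean count under 150. A larger difference between the control libraries was found for 3.39% of those genes. Without control 1 the log2 fold change of Grp was 4.65, and without control 2 it was 2.99. In Lhx2 cKO the libraries differed by 0.14 on the same scale.

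**Figure D1:**
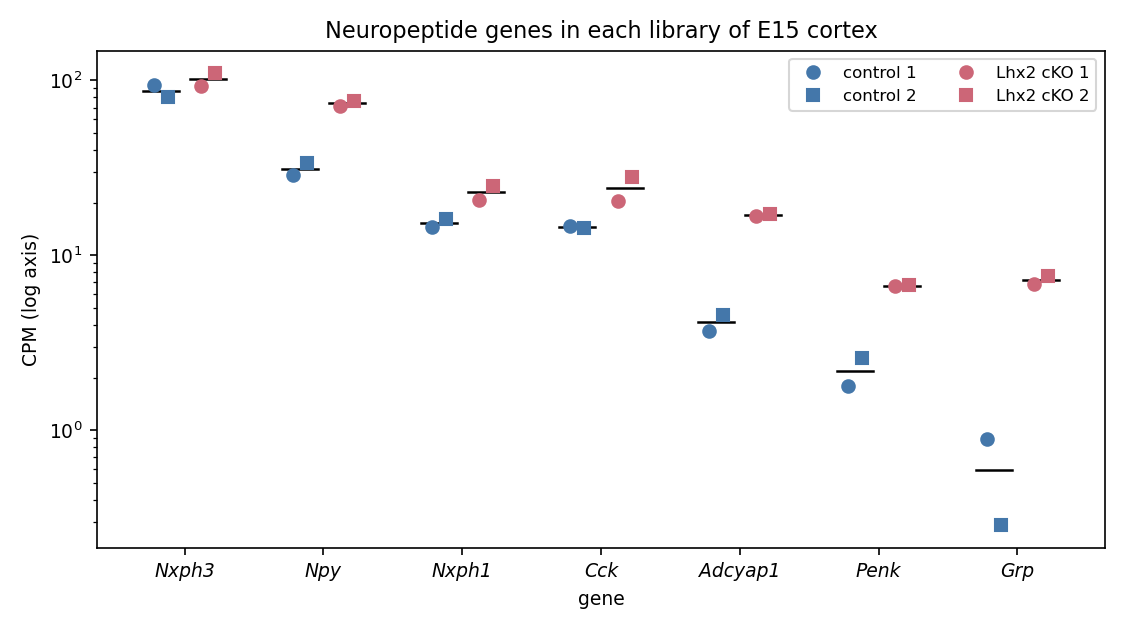
CPM on a log axis for the 7 genes in each of the 4 libraries, with control in blue and Lhx2 cKO in red; circles are replicate 1, squares replicate 2, and black lines the group means. Grp lies between 0.286 and 0.894 CPM in control and between 6.82 and 7.58 CPM in Lhx2 cKO, while the libraries of the 2 groups overlap for Nxph3.

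Among the other peptide precursors, Adcyap1 came next in size. Adcyap1 (ENSMUSG00000024256.8) encodes the precursor of PACAP, a peptide that raises cyclic AMP in its target cells. It was at 3.70 and 4.58 CPM in control and at 16.7 and 17.2 CPM in Lhx2 cKO. The groups did not overlap, and the log2 fold change was 2.04 (SE 0.182). Leaving out any one library kept it between 1.91 and 2.18.

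Penk (ENSMUSG00000045573.10) encodes proenkephalin, the source of the opioid enkephalins. Its levels were 1.79 and 2.58 CPM in control and 6.68 and 6.73 CPM in Lhx2 cKO. The Lhx2 cKO libraries were nearly equal and lay well above both control libraries, with a log2 fold change of 1.63 (SE 0.27). An exon of A830012C17Rik overlaps Penk on the other strand in GENCODE M21, and since the use of strand in counting is not given in the sources used here, the Penk counts are uncertain.

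Npy (ENSMUSG00000029819.7), the neuropeptide Y precursor, had the most counts of the peptide precursors. It was at 28.8 and 33.9 CPM in control and at 71.2 and 76.5 CPM in Lhx2 cKO. Every Lhx2 cKO value was above every control value, and the log2 fold change was 1.25 (SE 0.106). Across leave-one-out fits it stayed between 1.15 and 1.35.

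Cck (ENSMUSG00000032532.8) encodes cholecystokinin. The control libraries were close together at 14.7 and 14.3 CPM, whereas the Lhx2 cKO libraries were spread over 20.4 and 28 CPM. The groups did not overlap, and the log2 fold change was 0.76 (SE 0.147). Much of this size came from Lhx2 cKO 2: it fell to 0.46 when that library was left out and reached 0.996 when Lhx2 cKO 1 was.

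The neurexophilins of the list showed the smallest differences. Nxph1 (ENSMUSG00000046178.4) was at 14.6 and 16.1 CPM in control and at 20.9 and 24.99 CPM in Lhx2 cKO, without overlap, for a log2 fold change of 0.59 (SE 0.14). Leaving out Lhx2 cKO 2 gave 0.42, and leaving out Lhx2 cKO 1 gave 0.75. Nxph3 (ENSMUSG00000046719.8) was at 93.7 and 80.2 CPM in control and at 92.8 and 109.8 CPM in Lhx2 cKO. Here the groups overlapped, since Lhx2 cKO 1 lay below control 1, and the log2 fold change was 0.23 (SE 0.106). It ranged from 0.06 without Lhx2 cKO 2 to 0.38 without Lhx2 cKO 1.

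All 7 genes passed the low-count filter. Over the 7 genes the median log2 fold change was 1.25, against 0.003 over all 13288 genes tested. At an adjusted p under 0.05 in edgeR's quasi-likelihood test, 6 of the 7 were called higher and 0 lower, the exception being Nxph3; 11.6% of all genes tested were called higher and 9.17% lower. For the same 6 genes both Lhx2 cKO libraries lay above both control libraries, which was so for 28.9% of all genes tested; both lay below in 28.6%, so that the groups did not overlap in 57.5%. Nothing is read from these counts, as the list was proposed with this comparison known. Without Lhx2 cKO 2, Cck and Nxph1 were no longer called, at log2 fold changes of 0.46 and 0.42. Nxph3 was called without control 1 (0.36) and without Lhx2 cKO 1 (0.38). The authors' deposited table marks 5 of the 7 genes as up, and 5.61% of all 13289 genes. It marks the other 2, Nxph1 and Nxph3, as NS. In the authors' deposited table Nxph1 has a log2 fold change of 0.58 with an adjusted p of 0.00106. Lhx2, at -0.32 with an adjusted p of 0.0117 there, is marked NS as well, so the mark does not rest on the adjusted p at 0.05 alone.

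**Figure D2:**
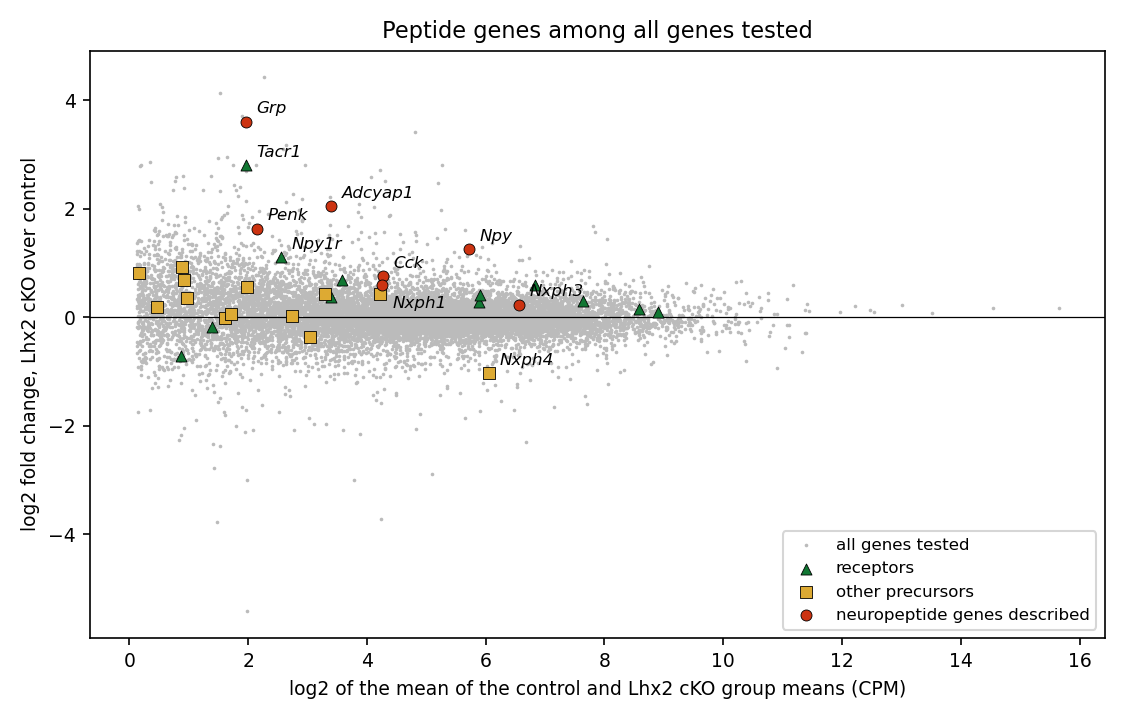
Plotted on the y axis is the log2 ratio of Lhx2 cKO over control, against the log2 of mean CPM, 1 point per gene tested: grey for all genes, red circles for the 7 genes described, yellow squares for other peptide precursors and green triangles for receptors. Grp at 3.60, Adcyap1 at 2.04, Penk at 1.63 and Npy at 1.25 stand near the upper edge of the grey cloud, and Nxph3 at 0.23 lies within it.

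Levels of different genes were compared as CPM per kb of the deposited gene length. In control the order from high to low was Npy, Nxph3, Cck, Nxph1, Penk, Adcyap1 and Grp, with means from 55.3 ± 6.36 CPM per kb (SD, n = 2) for Npy to 0.4 ± 0.291 CPM per kb (SD, n = 2) for Grp. Of the neighbours in this order only Penk and Adcyap1 overlapped between libraries, at 1.09 and 1.58 CPM per kb against 0.979 and 1.21 CPM per kb. In Lhx2 cKO Npy, Nxph3 and Cck kept the top places, at means of 130.5, 48.3 and 18.5 CPM per kb. Below them the other 4 genes stood close together: Grp was at a mean of 4.87, Nxph1 at 4.82, Adcyap1 at 4.49 and Penk at 4.11 CPM per kb. Grp, with 4.62 and 5.13, lay within the range of Nxph1, with 4.39 and 5.26 CPM per kb, so these neighbours were not separated. Adcyap1, with 4.43 and 4.54 CPM per kb, also lay within the range of Nxph1, whereas Penk, with 4.09 and 4.12 CPM per kb, was below all of them. Thus Grp stood in last place in control and among a group of similar levels in Lhx2 cKO.

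**Figure D3:**
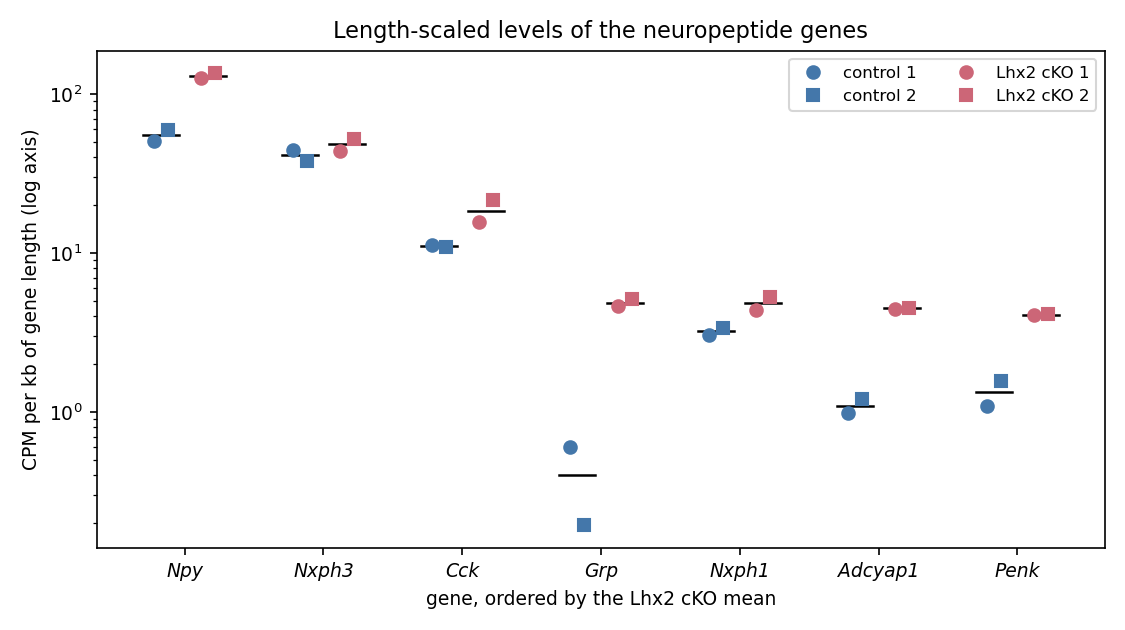
CPM per kb of gene length on a log axis for the 7 genes in each library, ordered by the Lhx2 cKO mean; circles are replicate 1, squares replicate 2, blue is control, red is Lhx2 cKO, and black lines are group means. Npy has the highest level in both groups (55.3 and 130.5), and Grp, Nxph1, Adcyap1 and Penk lie between 4.09 and 5.26 in the Lhx2 cKO libraries.

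Summed over the 7 genes, the level was 158 and 152 CPM in control and 235 and 271 CPM in Lhx2 cKO. Without Nxph1 and Nxph3 the sum over the peptide precursors was 49.8 and 55.6 CPM in control and 122 and 136 CPM in Lhx2 cKO. Nxph3 made up 59.3% and 52.8% of the summed CPM in the control libraries, and less, 39.4% and 40.6%, in those of Lhx2 cKO. These sums are not scaled for gene length, so the shares do not rank the genes by level. Per kb the control mean was 41.4 for Nxph3 and 55.3 for Npy. Grp remained a small part of the sum, at 0.565% and 0.189% for control, and at 2.90% and 2.80% for Lhx2 cKO. In bulk tissue, fewer cells of a type and less RNA per cell cannot be told apart, nor can more cells and more RNA per cell.

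Of 55 other peptide precursor and neurexophilin genes listed beside these, 13 had a row and were tested. Of the 13, 1 was called higher and 1 lower, against 20.8% of all genes tested called in either direction. Their median log2 fold change was 0.36, and it was 0.05 when genes with a mean count under 50 were left out. The gene that fell was Nxph4 (ENSMUSG00000040258.7), a neurexophilin known as a marker of the cortical subplate. It was at 91.9 and 88.2 CPM in control and at 40.0 and 47.0 CPM in Lhx2 cKO, lower in both Lhx2 cKO libraries, with a difference of -1.04 in log2 (SE 0.105, adjusted p 3.83e-10 in edgeR). The gene that rose was Nucb2, the nesfatin precursor, from 15.3 and 16.5 CPM to 19.2 and 23.2 CPM, a difference of 0.43 in log2 (SE 0.141, adjusted p 0.0245 in edgeR). Its call was lost in DESeq2 (adjusted p 0.0768) and in the fits without control 1, without control 2 and without Lhx2 cKO 2 (0.133, 0.0524 and 0.445).

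The remaining 11 precursors had log2 fold changes from -0.37 to 0.92 and did not pass the test. They include Nmb, the other bombesin-like peptide gene, which was at 9.02 and 9.53 CPM in control and at 8.34 and 5.97 CPM in Lhx2 cKO. Its log2 fold change was -0.37 (SE 0.192, adjusted p 0.18 in edgeR), and its exons overlap those of Sec11a on the same strand, which leaves its counts uncertain. Pnoc, the nociceptin precursor, was at 0.56 (SE 0.28, adjusted p 0.161 in edgeR). Cort, the cortistatin precursor, was at -0.02 (SE 0.302, adjusted p 0.971 in edgeR).

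The 4 neurexophilins thus had log2 fold changes of 0.59 for Nxph1, 0.43 for Nxph2 (SE 0.179, adjusted p 0.086 in edgeR), 0.23 for Nxph3 and -1.04 for Nxph4. Of the neurexins described here, Nrxn3 was at 0.28 (adjusted p 0.0568) and Nrxn2 at 0.10 (adjusted p 0.601). Antisense models overlap exons of Nrxn2 and Nrxn3 in GENCODE M21, so these counts are uncertain. In the subplate marker list, 3 of 8 genes were called lower, among them Nxph4, and 1 higher, against 9.17% lower and 11.6% higher over all genes tested. The summed level of that list without Nxph4 was 76.2 and 83.5 CPM in control and 49.7 and 48.8 CPM in Lhx2 cKO. Without Lpar1 as well, which was at -3.72 in log2, the other 6 genes summed to 43.1 and 46.4 CPM in control. In Lhx2 cKO they summed to 46.9 and 46.3 CPM, so the groups overlapped. This split was made after the data were seen. Of the 6, Tmem163 was called lower (-0.51, adjusted p 0.0131 in edgeR) and Nr4a2 higher (0.40, adjusted p 0.0242 in edgeR).

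**Figure D4:**
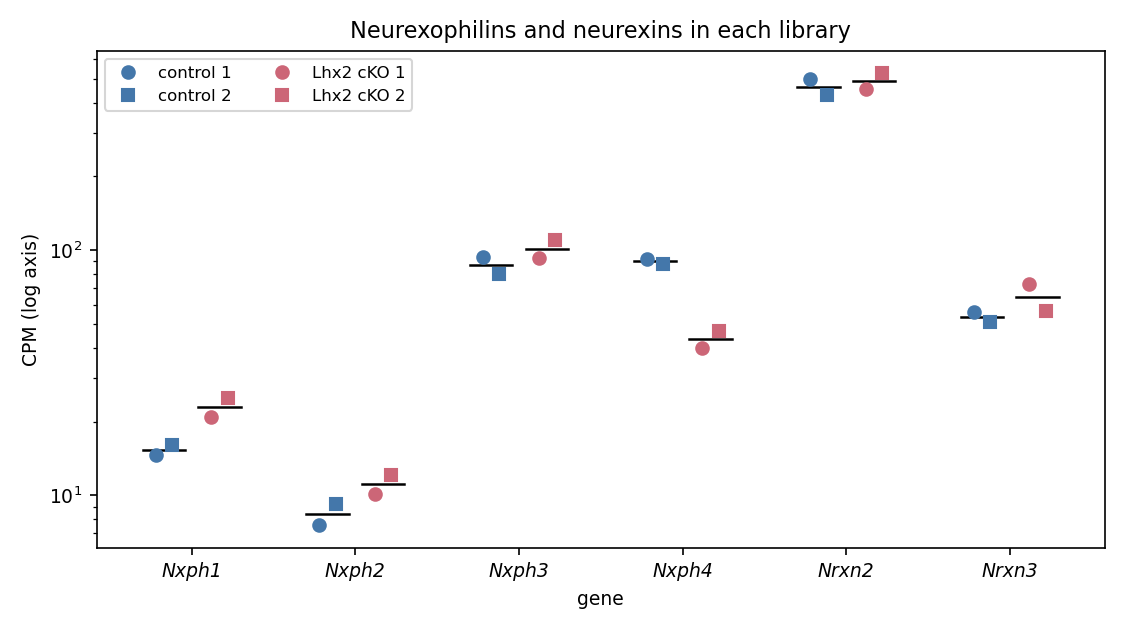
CPM on a log axis for 4 neurexophilin and 2 neurexin genes in each library; circles are replicate 1, squares replicate 2, blue is control, red is Lhx2 cKO, and black lines are group means. Nxph4 is near 90.02 CPM in control and near 43.5 CPM in Lhx2 cKO, while Nxph1 is higher in both Lhx2 cKO libraries.

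Receptors were taken from a list of 27 genes for the peptides described and for the neurexophilins, of which 12 were tested. Of the 12, 6 were called higher and 0 lower, against 11.6% called higher and 9.17% called lower over all genes tested. The median log2 fold change was 0.34, against a median of 0.003 over all genes tested. Grpr, the receptor for gastrin-releasing peptide, and the cholecystokinin receptors Cckar and Cckbr were not analysed here. The largest rise was that of Tacr1 (ENSMUSG00000030043.12), the receptor for substance P. It was at 1.10 and 0.859 CPM in control and at 6.32 and 7.24 CPM in Lhx2 cKO, without overlap, a difference of 2.80 in log2 (SE 0.312, adjusted p 3.62e-09 in edgeR). Npy1r (ENSMUSG00000036437.7), a receptor for neuropeptide Y, rose from 3.94 and 3.52 CPM to 8.61 and 7.33 CPM. Its log2 fold change was 1.10 (SE 0.226, adjusted p 2.98e-04 in edgeR), in the same direction as that of Npy.

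Smaller rises were found for the other called receptors. Ntsr1, a neurotensin receptor, rose from 95.3 and 87.1 CPM to 127 and 147 CPM, a difference of 0.60 in log2 (SE 0.101, adjusted p 1.73e-05 in edgeR). Crhr1, a receptor for corticotropin-releasing hormone, was at 0.68 (adjusted p 0.00292), Oprl1, the nociceptin receptor, at 0.41 (adjusted p 0.00421), and Adcyap1r1, the receptor selective for PACAP, at 0.30 (adjusted p 0.0206). For each of these 4 receptors both Lhx2 cKO libraries lay above both control libraries, which was so for 28.9% of all genes tested. As the calls came from the same libraries, this is no separate support. Without Lhx2 cKO 2 the calls of Crhr1, Oprl1 and Adcyap1r1 were lost (adjusted p 0.274, 0.0549 and 0.346), and without control 1 those of Oprl1 and Adcyap1r1 (0.204 and 0.123). Vipr1 and Vipr2, also in the receptor list, were at 0.37 and -0.18 and were not called (adjusted p 0.132 and 0.745 in edgeR). Sort1, a sorting receptor that binds neurotensin, was at 0.15 (adjusted p 0.313 in edgeR). Ntsr2 was at -0.72 (adjusted p 0.2 in edgeR), with group means of 2.28 CPM in control and 1.38 CPM in Lhx2 cKO.

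The machinery that makes and stores peptides was measured in 19 of 20 listed genes. Of these, 9 were called higher and 2 lower, against 11.6% called higher and 9.17% called lower over all genes tested. The median log2 fold change was 0.30, and it was 0.16 without control 1 and 0.17 without Lhx2 cKO 2. The largest rise was in Vgf (ENSMUSG00000037428.15), a granin-like precursor of dense-core vesicles that is induced by neurotrophins. It was at 9.83 and 10.1 CPM in control and at 24.8 and 26.6 CPM in Lhx2 cKO, a difference of 1.38 in log2 (SE 0.143, adjusted p 6.74e-10 in edgeR), with no overlap. Pcsk1n, which encodes an inhibitor of prohormone convertase, rose from 194 and 203 CPM to 321 and 359 CPM, a difference of 0.79 in log2 (SE 0.1, adjusted p 6.90e-08 in edgeR). Exons of Eras overlap it on the other strand, which leaves its counts uncertain.

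Further rises were found for Scg2 at 0.86, Chgb at 0.52 and Scg3 at 0.39, which are granins or granin partners, and for Cpe at 0.46, the carboxypeptidase that trims peptide ends (adjusted p 0.00273, 2.27e-04, 0.00436 and 0.00109 in edgeR). The Lhx2 cKO libraries lay above the control libraries for each of these 4 genes, as for 28.9% of all genes tested. This is no separate support, since the same libraries gave the calls. The granins did not all rise: Chga, which encodes chromogranin A, fell from 289.6 and 317 CPM to 238 and 259.9 CPM, a difference of -0.27 in log2 (SE 0.099, adjusted p 0.043 in edgeR), lower in both Lhx2 cKO libraries. Its call was lost in each fit without control 1, control 2 or Lhx2 cKO 1 (adjusted p 0.0558, 0.191 and 0.353) and with a mean count of at least 50 (0.0515). Scg5, the chaperone of prohormone convertase, was at -0.11 (adjusted p 0.478). Cadps, which primes dense-core vesicles for release, fell from 82.7 and 97.2 CPM to 52.4 and 51.8 CPM, a difference of -0.78 in log2 (SE 0.1, adjusted p 1.06e-07 in edgeR). Pam, which amidates peptides, was at 0.04 (SE 0.097, adjusted p 0.835), and the convertase Pcsk2 at 0.35 (SE 0.157, adjusted p 0.108). Without Lhx2 cKO 2 only Cadps, Chga, Pcsk1n and Vgf kept their calls in this list. The log2 fold changes were then 0.61 for Scg2, 0.33 for Chgb, 0.28 for Scg3 and 0.33 for Cpe. Without control 1 the call of Scg3 was among those lost, at 0.30. In both fits calls were also fewer over all genes, so the losses are not particular to this list.

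**Figure D5:**
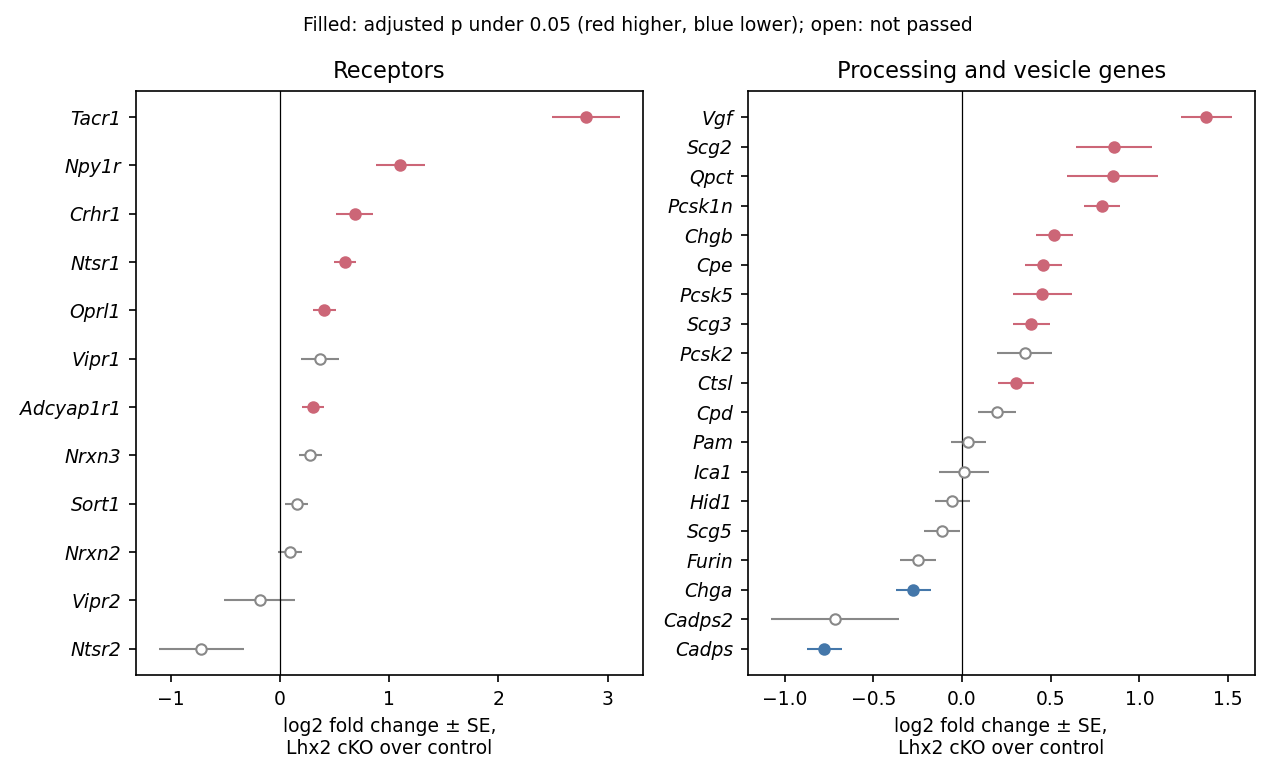
Log2 fold change of Lhx2 cKO over control with its SE for 12 receptor genes (left) and 19 processing and vesicle genes (right); filled points have an adjusted p under 0.05 in edgeR, red for higher and blue for lower, and open points do not. Tacr1 at 2.80 and Npy1r at 1.10 lead the receptors, and Vgf at 1.38 and Cadps at -0.78 are the ends of the processing list.

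Of 11 tested genes for enzymes that cut or inactivate peptides, 0 were called in edgeR and 0 in DESeq2. Over all genes tested the shares called were 20.8% and 16.3%. An unadjusted p under 0.05 in edgeR was found for 6 of the 11. No share over all genes was computed for that, so nothing is read from this count. Their log2 fold changes ran from -0.59 to 0.99, with a median of 0.16, which was 0.05 with a mean count of at least 50 and 0.09 without Lhx2 cKO 2. Mme, or neprilysin, which degrades enkephalins, was at 1.63 and 2.86 CPM in control and at 4.53 and 3.22 CPM in Lhx2 cKO. Its log2 fold change was 0.80 (SE 0.319, adjusted p 0.0712 in edgeR), and it was called without control 2, as was Dpp4.

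Markers of cell types that could carry these peptides were measured in the same libraries. Beside the counts of calls below, 11.6% of all genes tested were called higher and 9.17% lower. Of 16 interneuron lineage genes, 4 were called higher, 1 lower, and the summed level was 492 and 451 CPM in control and 561 and 491 CPM in Lhx2 cKO, so the groups overlapped. Among them Slc32a1, the vesicular GABA transporter, was at 0.58 and Gad2 at 0.48 on the log2 scale (adjusted p 0.00141 and 0.00196), while Lhx6 was at -0.06 and Gad1 at -0.07 (adjusted p 0.776 and 0.689). The striatal list, relevant to Penk, had 8 of 12 genes measured, with 2 called higher and 1 lower. Its summed level was 468 and 456 CPM in control and 400 and 377 CPM in Lhx2 cKO. The largest part of that sum was Meis2, the gene called lower, at 306 and 315 CPM in control and 216 and 202 CPM in Lhx2 cKO. By contrast, 7 of the 8 genes had a positive log2 fold change, as had 6704 of the 13288 genes tested. Among the 7, Ppp1r1b at 0.03 and Rgs9 at 0.06 were close to no difference. The median was 0.32, against 0.003 over all genes tested. Isl1, Drd2, Rarb and Six3 of that list were not analysed here. Of 8 hypothalamic markers none had a row in the table analysed here. The list of hippocampus and amygdala had 0 of 8 genes called higher and 1 lower, and the thalamic list 1 higher and 1 lower of 7.

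The remaining marker lists cover cell types outside the projection neuron and interneuron lineages. Their counts of calls also stand beside 11.6% called higher and 9.17% called lower over all genes tested. The Cajal-Retzius list had 4 of 7 genes called higher and 0 lower, with a summed level of 334 and 377 CPM in control and 505 and 608 CPM in Lhx2 cKO. The microglia list had 7 of 8 genes called higher and 0 lower, with a summed level of 112 and 117 CPM in control and 235 and 247 CPM in Lhx2 cKO. Of vascular and meningeal markers 4 of 9 were called higher and 1 lower, with sums of 195 and 227 CPM in control and of 251 and 271 CPM in Lhx2 cKO. The genes of this list did not move together. Cldn5, Cdh5, Kdr and Pecam1 were called higher. Col1a1 fell from 25.4 and 23.6 CPM to 4.53 and 1.61 CPM, a difference of -3.00 in log2. Col1a2 at 0.25 and Col3a1 at 0.20 were not called. Of red blood cell markers 1 of 7 was called higher and 5 lower, with sums of 3132 and 2396 CPM in control and of 2178 and 1852 CPM in Lhx2 cKO. The part of any of these cell types in the values of Grp, Npy, Adcyap1, Penk and Cck was not tested.

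The genes whose pattern was most like that of Grp were found by Euclidean distance over the 4 libraries in log2(CPM + 0.5), after subtracting each gene's mean, among genes whose mean reached 2 CPM. The nearest 5 were Ifi27 (distance 0.278), Medag (0.288), Mybpc1 (0.444), Gbp3 (0.589) and Ppp1r14c (0.6). Ifi27 was at 1.54 and 0.941 CPM in control and at 11.3 and 11.1 CPM in Lhx2 cKO. With 4 libraries in 2 groups, a gene counts as alike when its difference between groups is of similar size. None of the 5 is a peptide precursor.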

How the data were processed

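RNA-seq was analysed from 2 control and 2 Lhx2 cKO libraries of E15 mouse cortex, grouped and numbered by their titles. The deposited values are raw read counts per gene as the authors gave them: whole numbers with different totals per library. The submitters' processing notes name Trim Galore, Subread, featureCounts and edgeR and the build mm39; versions, strand setting and annotation are not given in the sources used here. Per the file headers, the authors' table also holds log2 values (log2 fold change and mean log2 CPM), p-values with adjusted p-values, the -log10 of the adjusted p-value, and gene length in bases.

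Counts were tested with edgeR 4.0.16 in R 4.3.3 (TMM, filterByExpr with a minimum of 10 counts, quasi-likelihood test without covariates) over the whole table, with Benjamini-Hochberg adjustment over 13288 genes; tests are two-sided. "Called" means an adjusted p under 0.05. SE was obtained from the log2 fold change and its F statistic, as the ratio of the former to the root of the latter. CPM is per library total over the 13289 genes of the table. The script was tested on simulated data. Chi-square over degrees of freedom was 13.9 between the counts of the control libraries and 14.3 between those of Lhx2 cKO, above sampling noise, so each library counted as 1 replicate.

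The genes and lists were chosen with earlier results of these data known. The naming rule took all members, up to 6 called genes per peptide list by smallest p with measured receptors, and the 5 genes most like Grp; Mme, Dpp4, Nmb, Pnoc, Cort, Scg3, Scg5, Chga, Pam, Pcsk2 and the single markers were named after their values were seen. Some listed genes are not reported here and were left out of the list counts. Exon overlaps come from GENCODE M21, promoters from RefSeq, and 4 of the 7 genes had a promoter entry. Exons of Pam, Lhx6 and Col3a1 also overlap another gene model on the same strand. Those of Pcsk2, Sort1, Dpp4, Slc32a1 and Tmem163 overlap one on the other strand, so the counts of all these genes are uncertain too. Alternatives were RLE size factors, library totals, no filter, a mean count of at least 50, DESeq2 1.42.0, a replicate block, a prior count of 2 and leaving out each library.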

Additional observations from a re-analysis of the deposited data

How the results depend on the processing

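Under RLE size factors, library totals, no filter, a mean count of at least 50, a prior count of 2, the replicate block and DESeq2, the log2 fold changes of all 7 genes stayed positive; that of Grp lay between 3.44 and 3.63. Genes called overall numbered 2758, and between 2170 (DESeq2) and 2874 (replicate block) in these settings. Only 1 other precursor, Nxph4, was called in DESeq2, and 1 inactivating enzyme, Dpp4, with the replicate block. The replicate numbers share only a number: deviations of same-numbered libraries had a correlation of -0.007 across genes, and within the lists the block also added Nrxn3 and removed Pcsk5.

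Leaving out a library left 1 in its group, which is then assumed to vary like the others. Calls ranged from 1632 (without Lhx2 cKO 2; 1788 without control 1) to 2396 over all genes, from 1 to 3 for other precursors, from 4 to 6 for receptors, from 4 to 10 for processing genes and from 0 to 2 for inactivating enzymes. The log2 fold change of Grp ranged from 2.99 to 4.65 and that of Lhx2 from -0.38 to -0.25. Of 286 values under an alternative for the 26 single genes called, 35 lost the call, 28 of them with a library left out, and 0 changed sign. Of 44 values for the 4 list medians, 4 moved beyond the spread between replicates. At this depth the Grp value in control rests on 22 and 7 counts, so its fold change is imprecise.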
